A study of Homo sapiens with 6 samples.

Results

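Receptor tyrosine kinases that are recurrently amplified, mutated or studied in glioma were followed in LN229 cells with and without PARP3. The 10 genes chosen by name are EGFR, ERBB2, ERBB3, PDGFRA, PDGFRB, MET, FGFR1, FGFR3, AXL and NTRK2. All 10 were found among the 33841 genes listed, and all 10 had enough reads to be tested. LN229 is an established human glioblastoma cell line. WT denotes the parental cells, and PARP3-/- denotes LN229 cells in which PARP3, an ADP-ribosyltransferase, was disrupted with CRISPR and a nickase form of Cas9. Both genotypes were grown under the same conditions in serum, proliferating and without further treatment, and each gave 3 biological replicates that were sequenced as total RNA. The PARP3-/- cells go back to single sorted cells, and which clone gave the RNA is not given in the sources used here, so that the effect of PARP3 loss and the history of a clone cannot be told apart.

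Receptor tyrosine kinases are cell surface proteins that bind a growth factor outside the cell and phosphorylate tyrosines inside it, usually after 2 receptors pair. The phosphorylated tails recruit adaptor proteins that feed the RAS-ERK and PI3K-AKT pathways, and thereby drive growth and survival. In glioblastoma, EGFR is the receptor most often amplified, PDGFRA and MET are amplified in smaller groups of tumours, and FGFR3 is known from fusions with TACC3. AXL is associated with a mesenchymal state of the tumour cells and NTRK2 with astrocytes and their precursors. Several receptors are often active in the same tumour.

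The 250 bases before the transcription start are shown for 3 of the receptors, FGFR3 because it had the smallest p of the set, AXL because it had the highest level and EGFR as the classical glioma receptor, whose libraries overlapped between the genotypes. They were taken from RefSeq on GRCh38.p14 and are written 5' to 3' on the strand of the gene. Capitals mark the GC box, the letters GGGCGG on either strand (CCGCCC on the other).
FGFR3 (chr4:1793043-1793292, plus strand): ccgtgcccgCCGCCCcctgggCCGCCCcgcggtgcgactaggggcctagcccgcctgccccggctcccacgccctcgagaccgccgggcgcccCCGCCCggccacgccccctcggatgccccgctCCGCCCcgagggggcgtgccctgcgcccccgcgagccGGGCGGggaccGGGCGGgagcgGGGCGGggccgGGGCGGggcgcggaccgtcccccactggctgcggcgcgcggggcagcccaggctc
AXL (chr19:41218973-41219222, plus strand): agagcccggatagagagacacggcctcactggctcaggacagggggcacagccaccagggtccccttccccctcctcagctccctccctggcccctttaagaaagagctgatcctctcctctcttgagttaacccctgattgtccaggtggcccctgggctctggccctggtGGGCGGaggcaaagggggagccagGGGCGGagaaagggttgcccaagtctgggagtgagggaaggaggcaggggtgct
EGFR (chr7:55018767-55019016, plus strand): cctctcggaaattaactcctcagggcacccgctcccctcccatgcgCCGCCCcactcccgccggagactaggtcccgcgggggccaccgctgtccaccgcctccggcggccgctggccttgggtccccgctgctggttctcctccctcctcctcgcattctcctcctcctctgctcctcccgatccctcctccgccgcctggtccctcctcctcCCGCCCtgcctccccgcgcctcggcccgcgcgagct
The FGFR3 sequence was 86.8% G or C and held 8 GC boxes. The AXL sequence was 64.4% G or C and held 2, and the EGFR sequence was 73.6% G or C and also held 2. The median over 35116 promoters of the same length was 58.0%. Promoters were matched for 8 of the 10 receptors, not for ERBB3 and FGFR1, and 6 of these 8 held a GC box, against 42.6% of all promoters. The AP-1 letters TGANTCA were found in 2 of the 8 (ERBB2 and PDGFRA) and in 6.57% of all, the E-box letters CACGTG in 0 of 8 and 6.34% of all, and the TATA letters TATAAA in 0 of 8 and 10.7% of all, with both strands searched. No letters of one motif can hold another whole motif, and a match of letters is a description only. For ERBB2 and NTRK2 the window lay 11970 and 304 bases from the start of the MANE Select transcript, the reference transcript of a gene, and for the other 6 it lay at that start.

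The libraries held 29692065 to 46010369 counts on genes. Of the listed genes, 17144 passed the filter on low counts and were tested by the quasi-likelihood method of edgeR with genotype as the only factor, and p-values were adjusted by Benjamini-Hochberg over all of them. Levels are given as CPM (counts scaled to library size by TMM, on the usual per-million basis), and 3 counts, the smallest number set apart from no reads, corresponded to 0.0673 to 0.0995 CPM, which covers counting error only. Replicate 1 stood apart from replicates 2 and 3 in both genotypes. Same-numbered libraries of the 2 genotypes deviated together, though numbers 2 and 3 were hardly told apart. The deviations of WT 2 correlated at 0.517 with PARP3-/- 2 and 0.41 with PARP3-/- 3, and those of WT 3 at 0.264 and 0.242. A second model that takes each numbered pair as a block (the replicate block) is given where it changes a call. Its pairs come from the numbers in the titles. PARP3 itself had 34.8, 22.4 and 24.2 CPM in WT replicates 1, 2 and 3 and 19.0, 22.5 and 19.5 CPM in PARP3-/- (adjusted p = 0.307 by edgeR, and 0.0469 with the replicate block), so that the libraries of the genotypes overlapped; reads from exons that the edit left in place can still be counted, and the groups are used as labelled. The glial markers VIM, NES, CD44, SOX2, S100B and OLIG2 were expressed, GFAP reached at most 0.414 CPM and SOX9 at most 0.0274 CPM, and 6 of the 8 glial markers were tested. S100B was lower in PARP3-/- (adjusted p = 0.0256 by edgeR, and 0.112, 0.108 and 0.119 without PARP3-/- replicate 2, PARP3-/- replicate 3 and WT replicate 3). The block called 4 of the 6 lower, S100B, CD44 (adjusted p = 0.00721), SOX2 (0.00516) and OLIG2 (0.00152), DESeq2 called S100B and OLIG2 (0.0148), and the part of these markers in the receptor values was not tested. The summed markers of leukocytes stayed at or below 0.564 CPM, those of endothelial cells at or below 0.821 CPM and those of epithelial cells, almost all from KRT14, at or below 4.95 CPM (KRT14 adjusted p = 0.784, and 0.049 with the block).

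At the level of calls, 0 of the 10 receptors passed an adjusted p of 0.05 with genotype as the only factor, against 4.70% of all tested genes (3.33% lower and 1.36% higher in PARP3-/-). FGFR3 was the single receptor with an unadjusted p under 0.05 in this model. DESeq2 on the same genes called 1 receptor, FGFR3, against 8.24% of all tested genes. With the replicate block, 4 of the 10 were called, ERBB3 lower and ERBB2, FGFR3 and AXL higher, where 24.3% of all genes were called (12.5% lower and 11.8% higher). The blocked model called 7 of the 10 without pair 1, 2 without pair 2 and 2 without pair 3, where it called 29.9%, 14.4% and 15.0% of all genes. With a pair left out few libraries remain, so the p-values of these fits rest largely on the spread pooled over genes. This holds for all 3 fits alike, and why their shares differ was not tested. The libraries of the genotypes did not overlap for 2 receptors that were higher in PARP3-/- (ERBB2 and FGFR3), where 10.8% of all genes were separated in that direction, and for 1 that was lower (PDGFRB), where the share was 12.0%. The ratio had the same sign in all 3 pairs for 6 of the 10, 4 higher and 2 lower, against 54.4% of all genes. The median log2 fold change of the 10 receptors was 0.04, and that of all tested genes was -0.01.

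**Figure D1:**
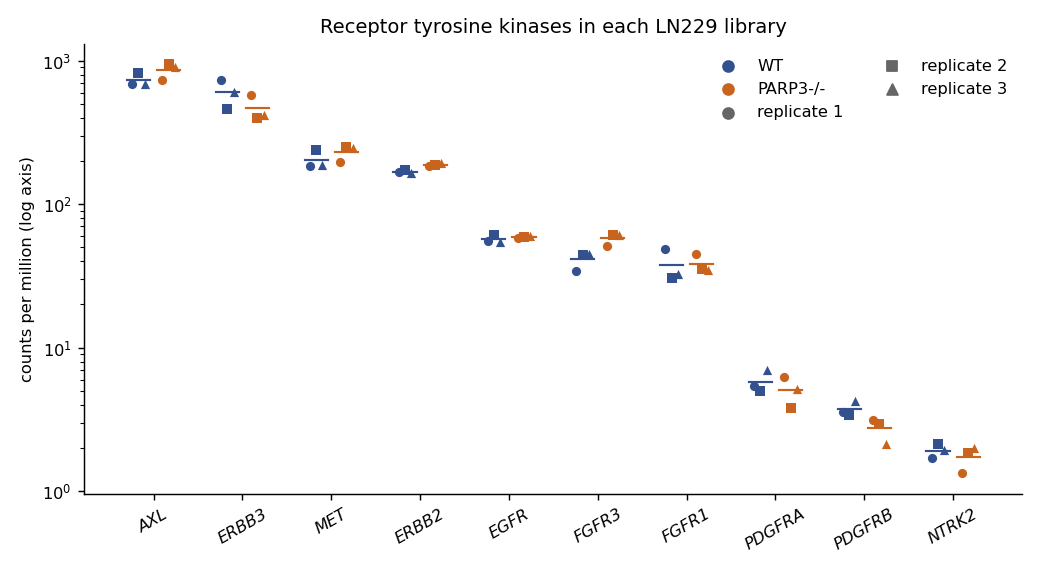
Level of each receptor in each library, in CPM on a log axis, with WT in blue, PARP3-/- in orange, a marker shape for each replicate and a line at the mean of 3 libraries. The receptors spread from NTRK2 at 1.33 to 2.12 CPM to AXL at 686 to 942 CPM, and the points of the 2 genotypes are separate only for ERBB2, FGFR3 and PDGFRB.

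Of the 2 fibroblast growth factor receptors in the set, FGFR3 (ENSG00000068078, chr4:1793307-1808872 in hg38) had the larger difference between the genotypes. FGFR3 had 34.5, 44.3 and 45.3 CPM in WT replicates 1, 2 and 3 and 51.5, 61.2 and 60.7 CPM in PARP3-/- replicates 1, 2 and 3. Every PARP3-/- library lay above every WT library, and replicate 1 was the lowest of its genotype in both. The level was 41.4 ± 5.99 CPM in WT and 57.8 ± 5.50 CPM in PARP3-/- (SD, n = 3 each), a log2 fold change of 0.48 (SE 0.13, 95% interval 0.18 to 0.79, adjusted p = 0.101 by edgeR). The replicate block brought the adjusted p of FGFR3 to 8.94e-05, and DESeq2 gave an adjusted p of 0.0258. Within the pairs the log2 ratios were 0.58, 0.47 and 0.42, all in the same direction, and the blocked call held with each pair left out in turn, with adjusted p between 5.88e-13 and 0.00135. The smallest of these came without pair 1, where the blocked fit called 29.9% of all genes, and each of these fits had few libraries. Without the block, leaving out single libraries gave log2 fold changes of 0.37 to 0.56 and adjusted p of 0.0849 to 0.331. Of the 70 other tested genes within 5 Mb of FGFR3, 67 had a smaller log2 fold change, and their median was 0.02.

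FGFR1 (ENSG00000077782, chr8:38411138-38468834), which is broadly expressed in the brain, did not separate the genotypes. FGFR1 had 49.0, 30.6 and 32.7 CPM in the WT libraries and 44.8, 35.4 and 34.8 CPM in PARP3-/-. The groups overlapped, and replicate 1 was the highest of both genotypes, opposite to FGFR3. The log2 fold change was 0.03 (SE 0.20, 95% interval -0.43 to 0.50, adjusted p = 0.974 by edgeR). With the replicate block the interval was -0.095 to 0.204 (adjusted p = 0.616), which lay below the estimate for FGFR3, while the interval without the block held it. Single libraries left out moved the value between -0.097 (without WT replicate 2) and 0.273 (without WT replicate 1).

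In the ERBB family, EGFR (ENSG00000146648, chr7:55019021-55211628), the receptor for EGF and TGFA, had 55.5, 61.2 and 54.8 CPM in WT and 58.5, 58.8 and 60.3 CPM in PARP3-/-. The 3 PARP3-/- libraries lay close together and within the WT range. The log2 fold change was 0.05 (SE 0.07, adjusted p = 0.848 by edgeR), its 95% interval was -0.13 to 0.23, and it lay between 0.021 and 0.097 with single libraries left out. ERBB2 (ENSG00000141736, chr17:39687914-39730426), which has no known ligand and pairs with the other ERBB receptors, had 169, 174 and 165 CPM in WT and 184, 189 and 193 CPM in PARP3-/-. All PARP3-/- libraries were above all WT libraries, though by little. The log2 fold change of ERBB2 was 0.16 (SE 0.07, 95% interval -0.01 to 0.32, adjusted p = 0.34 by edgeR), and the adjusted p was 0.0434 with the replicate block. That blocked call was lost without pair 2 (adjusted p = 0.133) and without pair 3 (adjusted p = 0.302), and kept without pair 1 (adjusted p = 0.00557). ERBB2 overlaps MIEN1, PGAP3 and MIR4728 in the annotation, and union counting drops reads shared between genes.

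ERBB3 (ENSG00000065361, chr12:56079857-56103505), a neuregulin receptor with little kinase activity of its own, was the second most abundant of the set. ERBB3 had 738, 461 and 603 CPM in WT and 576, 401 and 420 CPM in PARP3-/-. The groups overlapped, since PARP3-/- replicate 1 lay above WT replicate 2, and replicate 1 was the highest of each genotype. The mean of ERBB3 was 601 ± 138 CPM in WT and 466 ± 95.6 CPM in PARP3-/- (SD, n = 3 per genotype), and the log2 fold change was -0.37 (SE 0.21, 95% interval -0.86 to 0.13, adjusted p = 0.475 by edgeR). Without WT replicate 1 the value was -0.193, and with other single libraries left out it reached -0.546. With the replicate block the adjusted p was 0.0026, the log2 ratios within pairs being -0.36, -0.20 and -0.52, and the call held without pair 1 (adjusted p = 1.88e-09), pair 2 (0.00534) and pair 3 (0.0423). Of the 164 other tested genes within 5 Mb, 73.8% had a log2 fold change below 0 and 19 were called, with a median of -0.19, and 41 lay below ERBB3; what that stretch shares with ERBB3 was not tested.

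AXL and MET are the receptors for GAS6 and for hepatocyte growth factor. AXL (ENSG00000167601, chr19:41219203-41261766) had 691, 822 and 686 CPM in WT and 733, 942 and 897 CPM in PARP3-/-. The groups overlapped, with replicate 1 the lowest in PARP3-/- and replicate 2 the highest in both. The log2 fold change of AXL was 0.23 (SE 0.13, 95% interval -0.09 to 0.54, adjusted p = 0.495 by edgeR), and the adjusted p was 0.0335 with the replicate block. That fold change ran from 0.154 to 0.328 with single libraries left out and no block. An antisense gene inside AXL, AC011510.1, had 12 counts over all libraries against 185916 for AXL. Without pair 1 the blocked adjusted p was 7.77e-06, while the call was lost without pair 2 (0.12) and without pair 3 (0.306). MET (ENSG00000105976, chr7:116672390-116798386) had 186, 238 and 189 CPM in WT and 196, 250 and 246 CPM in PARP3-/-. Replicate 2 was again the highest of each genotype, and the ranges overlapped. MET had a log2 fold change of 0.18 (SE 0.14, 95% interval -0.15 to 0.51, adjusted p = 0.644 by edgeR and 0.0766 with the replicate block), and between 0.114 and 0.296 with single libraries left out. The log2 ratio was above 0 in all 3 pairs for both genes, and was largest in pair 3 for both, at 0.39 for AXL and 0.39 for MET. The 27 other tested genes within 5 Mb of MET had a median log2 fold change of 0.13, close to that of MET.

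The PDGF receptors were expressed at low levels. PDGFRA (ENSG00000134853, chr4:54229097-54298247), which marks oligodendrocyte precursors and proneural gliomas, had 5.44, 4.98 and 6.97 CPM in WT and 6.23, 3.81 and 5.18 CPM in PARP3-/-. The groups overlapped and pair 1 went against the other pairs. PDGFRA had a log2 fold change of -0.20 (SE 0.22, 95% interval -0.71 to 0.32, adjusted p = 0.78 by edgeR). That value was -0.023 without PARP3-/- replicate 2, -0.042 without WT replicate 3, -0.301 without WT replicate 2 and -0.367 without PARP3-/- replicate 1. PDGFRB (ENSG00000113721, chr5:150113837-150155872), the PDGF receptor of pericytes and mesenchymal cells, had 3.58, 3.41 and 4.22 CPM in WT and 3.15, 2.96 and 2.12 CPM in PARP3-/-. All PARP3-/- libraries lay below all WT libraries, on 131, 143 and 173 counts in WT and 95, 132 and 80 counts in PARP3-/-. The log2 fold change of PDGFRB was -0.45 (SE 0.19, 95% interval -0.91 to 0.01, adjusted p = 0.318 by edgeR and 0.0768 with the replicate block). Pair 3 contributed most to its size, since the log2 ratio was -0.99 in pair 3 and -0.19 and -0.20 in pairs 1 and 2. The log2 fold change was -0.29 without PARP3-/- replicate 3 and -0.351 without WT replicate 3.

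NTRK2 (ENSG00000148053, chr9:84668551-85027070), the BDNF receptor TrkB, had the lowest level of the set. NTRK2 had 1.70, 2.12 and 1.95 CPM in WT and 1.33, 1.86 and 2.01 CPM in PARP3-/-. The groups overlapped. These levels rest on 62, 89 and 80 counts in WT and 40, 83 and 76 counts in PARP3-/-. The 95% interval of the log2 fold change of NTRK2 ran from -0.63 to 0.34 around -0.14 (SE 0.20, adjusted p = 0.84 by edgeR). With single libraries left out the value ran from -0.26 to 0.009, the latter without PARP3-/- replicate 1.

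**Figure D2:**
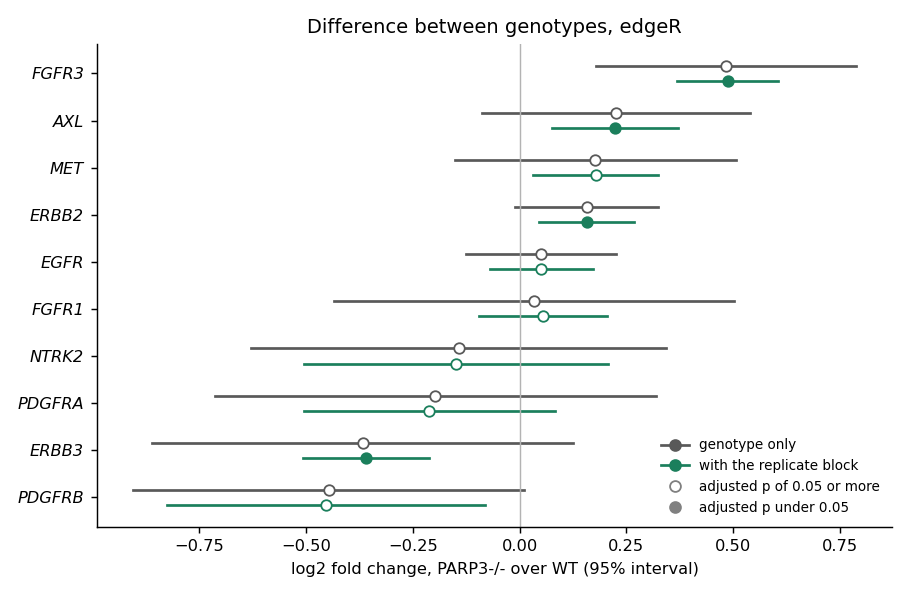
Log2 fold change of each receptor, PARP3-/- over WT, with its 95% interval, from edgeR with genotype only (grey) and with the replicate block (green), filled where the adjusted p was under 0.05. The estimates of the 2 models lie close together, the blocked intervals are shorter, and the filled points are FGFR3, AXL, ERBB2 and ERBB3, all with the block.

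**Figure D3:**
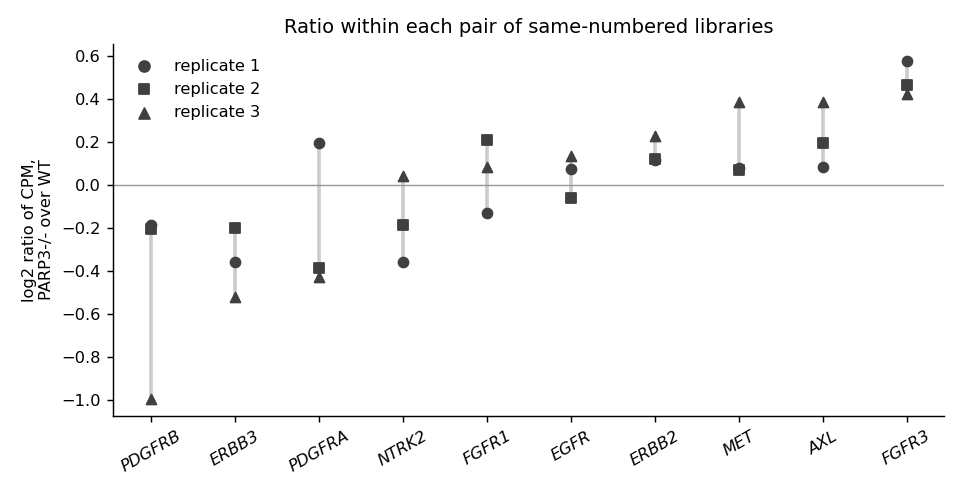
Log2 ratio of CPM, PARP3-/- over WT, within each pair of same-numbered libraries. The 3 pairs of FGFR3 lie between 0.42 and 0.58, those of PDGFRB run from -0.99 to -0.19, and those of PDGFRA, NTRK2, FGFR1 and EGFR lie on both sides of 0.

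The 2 models gave close estimates of each receptor and different standard errors. The median standard error of the log2 fold change over the 10 receptors was 0.166 with genotype only and 0.066 with the block, and over all tested genes it was 0.157 and 0.075. Replicate 1 deviated from the mean of replicates 2 and 3 in the same direction in both genotypes for 7 of the 10 receptors. It was higher in log2 CPM by 0.48 in WT and 0.49 in PARP3-/- for ERBB3, and by 0.63 and 0.35 for FGFR1. For FGFR3 it was -0.378 in WT and -0.245 in PARP3-/-, and for MET -0.19 and -0.34. With both replicate 1 libraries left out and no block, 3 receptors were called, ERBB3 (adjusted p = 0.0362), FGFR3 (4.76e-04) and AXL (0.0405), where 19.0% of all genes were called. The source of the replicate 1 deviation was not tested.

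Per length, the receptors covered a wide range of levels whose order was the same in both genotypes. On the scale of CPM per kilobase of the MANE Select transcript, the WT means were 155 for AXL, 107 for ERBB3, 37.2 for ERBB2, 29.9 for MET, 9.62 for FGFR3, 6.57 for FGFR1, 5.77 for EGFR, 0.909 for PDGFRA, 0.655 for PDGFRB and 0.222 for NTRK2. In PARP3-/- the means in the same order were 182, 83.0, 41.4, 33.8, 13.4, 6.73, 5.98, 0.796, 0.481 and 0.2. Neighbours in this order had separate ranges in WT, except FGFR3 with FGFR1 and FGFR1 with EGFR, and in PARP3-/- all neighbours had separate ranges. With the union of annotated exons as the length, ERBB2 and MET changed places, as did FGFR1 and EGFR.

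Among all 56 receptor tyrosine kinases listed in the table, AXL ranked 1 and ERBB3 ranked 2 by level per length in both genotypes on MANE Select lengths. On union exon lengths AXL stayed first, and EPHA2, at 52.0 in WT and 61.5 in PARP3-/-, lay above ERBB3, at 51.3 and 39.8. The set of 10 made up 56.7 to 58.2% of the summed per-length level of the 56 receptors in every library, with no separation of the genotypes. Within that sum AXL took 22.9, 28.2 and 24.2% in WT and 24.9, 30.3 and 29.8% in PARP3-/-. ERBB3 took 20.5, 13.3 and 17.9% in WT and 16.4, 10.9 and 11.7% in PARP3-/-. The ratio of AXL to ERBB3 in the means on MANE Select lengths was 1.45 in WT and 2.19 in PARP3-/-, while the shares of both overlapped between the genotypes. On union exon lengths the mean of AXL was 143 in WT and 167 in PARP3-/-, so that the ratio to ERBB3 is larger there. The shares were computed on MANE Select lengths only. EGFR took at most 0.999% in any library. In bulk RNA, fewer cells expressing a receptor and less RNA of it per cell cannot be told apart.

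The other receptor tyrosine kinases set the receptors of the glioma set in context. Of 48 others, 46 were in the table, 29 were tested and 7 were called with genotype only, 6 lower and 1 higher in PARP3-/-, beside 3.33% and 1.36% of all genes. Among the 6 lower, FGFR2 and ALK had 10 counts or more in WT libraries only, and so passed the filter on low counts through WT alone. Their lower direction was therefore largely set by the filter. The list of others leaves out the set of 10 by choice, and the difference between the 2 lists was not tested. FGFR2, the paralog of FGFR1 and FGFR3, fell from 1.04, 1.60 and 1.27 CPM to 0.0995, 0.135 and 0.106 CPM, a log2 fold change of -3.47 (SE 0.30, adjusted p = 0.00139 by edgeR). The PARP3-/- values of FGFR2 were close to the limit of 3 counts. EPHB2 and EPHB3, receptors for B-type ephrins, fell, with log2 fold changes of -3.81 (adjusted p = 0.00132) and -0.69 (adjusted p = 0.0163) by edgeR. PTK7, a pseudokinase of the planar cell polarity pathway, fell from a mean of 78.1 to 34.5 CPM with a log2 fold change of -1.18 (SE 0.07, adjusted p = 0.00039 by edgeR). AATK, the apoptosis-associated tyrosine kinase, fell from a mean of 11.6 to 3.0 CPM with a log2 fold change of -1.95 (adjusted p = 0.0011 by edgeR). ALK had 46 counts over the WT libraries and 3 over the PARP3-/- libraries, a ratio of 14.4 after scaling with an exact 95% counting interval of 4.64 to 72.5 (adjusted p = 0.00292 by edgeR). That interval is for the pooled counts and leaves out the spread between libraries.

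EPHA5, a receptor for A-type ephrins, was the receptor called higher, at 5.55, 4.36 and 4.09 CPM in WT and 12.1, 8.23 and 8.46 CPM in PARP3-/- (log2 fold change 1.04, SE 0.20, adjusted p = 0.0353 by edgeR). The calls of FGFR2, PTK7, EPHB2, ALK and AATK held with each library left out in turn. That of EPHB3 was lost without PARP3-/- replicate 2 (adjusted p = 0.0903), PARP3-/- replicate 3 (0.0685) or WT replicate 3 (0.0901), and that of EPHA5 with every library left out except WT replicate 1, with adjusted p up to 0.162. The most abundant of the others by CPM, DDR2, EPHA2 and FLT1, had log2 fold changes of 0.19, 0.24 and 0.37 (adjusted p = 0.855, 0.358 and 0.0511 by edgeR). Under the block all 3 were called higher (adjusted p = 0.0327, 0.0159 and 5.03e-04), and DESeq2 called FLT1 (0.00133). The median over the 29 was -0.13. Under the block, 17 of the 29 were called, 11 lower and 6 higher, where 12.5% and 11.8% of all genes were.

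**Figure D4:**
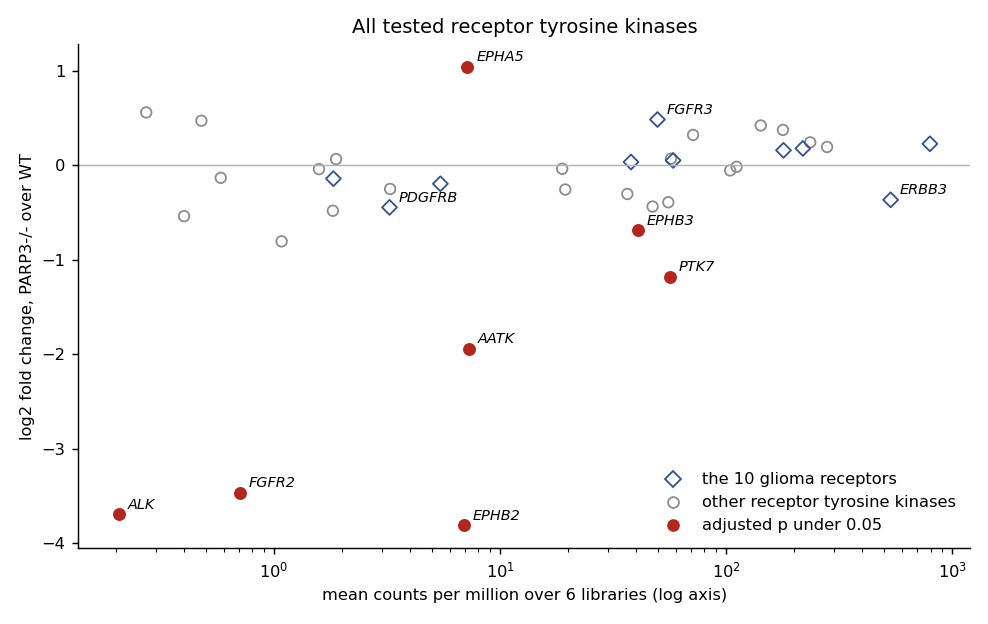
Log2 fold change (PARP3-/- over WT) against mean CPM over 6 libraries on a log axis, for the 39 tested receptor tyrosine kinases, the set of 10 as blue diamonds and the others as circles, filled red where the adjusted p was under 0.05 with genotype only. The 10 diamonds lie between -0.45 and 0.48, and the 7 red points, from EPHB2 at -3.81 to EPHA5 at 1.04, are all circles.

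Among ligands of the 10 receptors, PDGFB, FGF5 and NTF3 were higher in PARP3-/-. Of 34 ligands, 31 were in the table, 19 were tested and 3 were called, all higher in PARP3-/-, where 1.36% of all genes were called higher, and the median log2 fold change of the 19 was 0.34. The filter on low counts removed 12 listed ligands. With no filter 4 ligands were called, 3 higher and 1 lower, where 972 genes were called in all (724 lower and 248 higher). The ratio was above 0 in all 3 pairs for 11 of the 19 and below 0 in all 3 for 3, and the libraries of the genotypes were separate for 8 in the higher and 1 in the lower direction, where all genes gave 54.4% of 1 sign, 10.8% separate and higher and 12.0% separate and lower. PDGFB, which binds both PDGF receptors, rose from 9.85, 11.6 and 9.45 CPM in WT to 18.0, 27.4 and 20.9 CPM in PARP3-/- (log2 fold change 1.101, SE 0.17, adjusted p = 0.0155 by edgeR). Its receptor PDGFRB was among the receptors with lower values, as given above. FGF5, a ligand of FGFR1, rose from 0.821, 0.952 and 0.902 CPM to 1.72, 2.76 and 2.94 CPM (log2 fold change 1.47, SE 0.24, adjusted p = 0.0183 by edgeR). NTF3, neurotrophin 3, which binds NTRK3 and less strongly NTRK2, rose from 0.383, 0.405 and 0.512 CPM to 1.29, 2.11 and 1.83 CPM (log2 fold change 2.01, SE 0.26, adjusted p = 0.00676 by edgeR). FGF5 and NTF3 stayed at a few CPM or less in every library.

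The call of NTF3 held with each library left out in turn. PDGFB lost its call without PARP3-/- replicate 3 (adjusted p = 0.0593) or WT replicate 3 (0.0927), and FGF5 without PARP3-/- replicate 2 (0.0938), PARP3-/- replicate 3 (0.0858), WT replicate 2 (0.0605) or WT replicate 3 (0.0991). The most abundant ligands did not pass with genotype only. TGFA, a ligand of EGFR, had means of 649 CPM in WT and 568 CPM in PARP3-/- (adjusted p = 0.509), PDGFA 229 and 273 CPM (0.496) and FGF2 124 and 110 CPM (0.349), all by edgeR with genotype only. With the replicate block, 10 of the 19 ligands were called, 1 lower (TGFA, adjusted p = 0.0498) and 9 higher, PDGFA among them (adjusted p = 0.0182), where 24.3% of all genes were called.

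**Figure D5:**
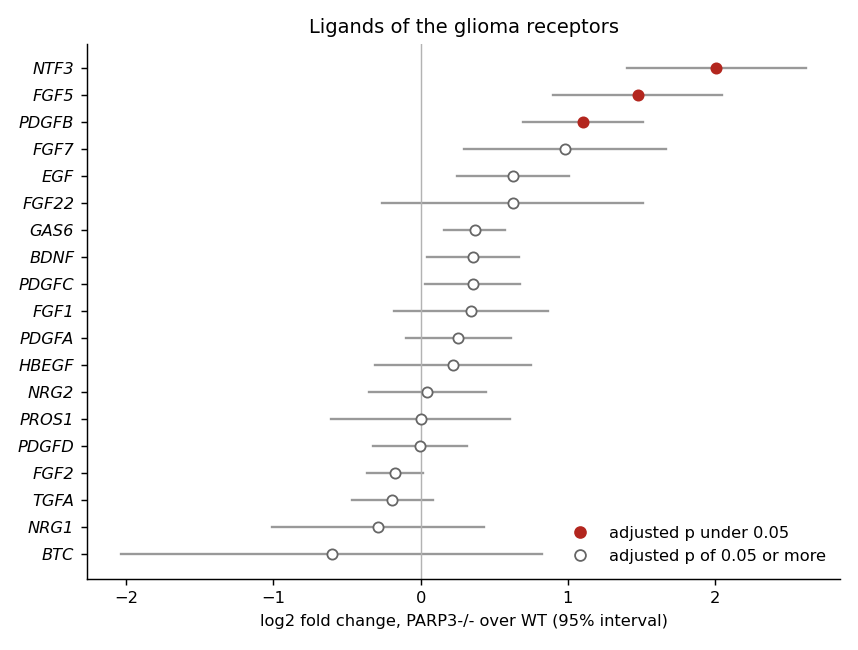
Log2 fold change (PARP3-/- over WT) with its 95% interval for the 19 tested ligands, from edgeR with genotype only, filled red where the adjusted p was under 0.05. The red points are NTF3 at 2.01, FGF5 at 1.47 and PDGFB at 1.101.

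Genes that act after the receptors did not pass with genotype only, where 4.70% of all tested genes were called. DESeq2 called 8.24% of all tested genes. The counts of these lists were not tested against those shares. Of the 23 negative regulators, such as the SPRY and SPRED proteins, CBL ligases and phosphatases, 22 were tested and 0 were called (2 at an unadjusted p under 0.05, 2 by DESeq2), with a median log2 fold change of 0.06. The most abundant were SPRED1 at means of 239 CPM in WT and 256 CPM in PARP3-/-, FGFRL1, a receptor-like protein without a kinase, at 170 and 192 CPM, and PTPN1 at 160 and 164 CPM. Of 32 adaptors and transducers, 31 were tested and 0 were called (5 at an unadjusted p under 0.05, 1 by DESeq2), with a median of 0.04. PTPN11, the phosphatase SHP2, and SHC1, an adaptor, were abundant members, at log2 fold changes of 0.04 and 0.06. Of 11 genes induced by ERK signalling, 0 were called (2 at an unadjusted p under 0.05, 0 by DESeq2), with a median of -0.05. The most abundant were CCND1 at means of 952 CPM in WT and 1217 CPM in PARP3-/-, PHLDA1 at 375 and 397 CPM and DUSP4 at 302 and 291 CPM. With the replicate block, 7 negative regulators (1 lower, 6 higher), 14 adaptors and transducers (5 lower, 9 higher) and 6 ERK target genes (3 lower, 3 higher) were called, where 24.3% of all genes were called. FGFRL1 (adjusted p = 0.0337) was among the higher negative regulators. The ERK target genes were DUSP6, ETV5 and EGR1, lower, and CCND1 (adjusted p = 0.00394), FOSL1 and IER3, higher. Libraries of the genotypes were separate for 3 ERK target genes in the lower and 0 in the higher direction. For negative regulators these counts were 2 and 1, and for adaptors and transducers 3 and 4, where 12.0% and 10.8% of all genes were separate.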

How the data were processed

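RNA of WT and PARP3-/- LN229 cells, 3 libraries each, was analysed from the deposited raw counts per Ensembl gene. The authors trimmed single-end reads of stranded, rRNA-depleted total RNA libraries with cutadapt 1.10, removed rRNA and spike-in reads with Bowtie2 2.2.8, aligned to hg38 with STAR 2.5.3a and counted with HTSeq 0.6.1p1 in union mode on Ensembl 91; the strand setting is not given in the sources used here, so antisense reads could be included. The labels name polyA RNA, and the methods were followed. The 12 columns of normalized values per sample were not used, nor were the 3 columns of the authors' comparison (log2 fold change, p and adjusted p).

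Counts were tested in R 4.3.3 with edgeR 4.0.16 (TMM, filterByExpr with a minimum count of 10, quasi-likelihood, genotype only), and called at a Benjamini-Hochberg adjusted p under 0.05 over 17144 genes. The code was also run on simulated counts with the same variance setting for every gene and no replicate effect. The changes planted there were larger than those of the receptors, so that run cannot show how either model behaves on these data. Standard errors were computed from each fold change and its F value. Depth was 29692065 to 46010369 counts per library. The labels call the replicates biological, and the study speaks of independent experiments; p-values measure the spread between these libraries. Same-numbered libraries deviated together (correlations of deviations 0.676, 0.517 and 0.242 for numbers 1, 2 and 3, from the numbers in the titles), although WT 3 correlated slightly more with PARP3-/- 2 (0.264). Alternatives were DESeq2 1.42.0, RLE size factors, other filters, a replicate block, each library left out and a stricter call. Leaving out replicate 1, leaving pairs out of the blocked model and union exon lengths were added after seeing the data. Lengths are MANE Select transcripts of GENCODE 44. The receptors and all gene lists were chosen with earlier results of these data known. All 10 receptors, PARP3, every called gene of each list and the 3 most abundant tested genes of lists with few calls are named, except 1 gene that is not reported here. INSRR, RET, AREG, FGF4, FGF20 and CBLC were not analysed here.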

Additional observations from a re-analysis of the deposited data

How the results depend on the processing

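Directions held for 8 of the 10 receptors under every alternative. FGFR1 was near 0 and turned to -0.022 with the replicate block without pair 2, and ranged from -0.097 to 0.273 with single libraries left out. NTRK2 ranged from -0.26 to 0.009 with single libraries left out. The count of called receptors was 0 with genotype only, with RLE, under either filter, under the stricter call and with each library left out, 1 with DESeq2, 4 with the replicate block (7, 2 and 2 without pairs 1, 2 and 3) and 3 without both replicate 1 libraries. FGFR3 and ERBB3 were called in all 4 blocked fits. Calls among the other receptors were 7, and 11 with DESeq2, 17 with the block, 4 at a mean count of at least 50, 1 under the stricter call and 5 to 8 with a library left out. Ligand calls were 3, and 4 with no filter, 6 with DESeq2, 10 with the block, 0 under the stricter call and 1 to 5 with a library left out, the lowest without PARP3-/- replicate 3 or WT replicate 3. These held 1 lower call with no filter, with the block, without PARP3-/- replicate 1 and without WT replicate 2. Calls among negative regulators were 0, and 2 with DESeq2 and 7 with the block. Calls among adaptors were 0, and 1 with DESeq2, 1 with no filter, 14 with the block and 0 to 3 with a library left out, the 3 without WT replicate 1. Calls among ERK targets were 0, and 6 with the block. Over all genes 805 were called (571 lower, 234 higher), 1412 with DESeq2 (872 and 540), 503 at a mean count of at least 50 (331 and 172, with fewer genes tested), 4166 with the block (2143 and 2023), 82 under the stricter call (76 and 6) and 332 to 865 with a library left out. Where no reason is given, the cause was not tested. On raw library totals 0 of 20 mean levels moved by over 1 SD, and union exon lengths changed 4 of 10 ranks. NTRK2 rests on counts below about 100. Its SE was 0.205 with genotype only, beside 0.208 for the abundant ERBB3, and 0.161 with the block, beside 0.066 for ERBB3. The part of the low counts in the SE of NTRK2 was not tested.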
